A study of Mus musculus with 24 samples.

Results

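The family of miR-130 and miR-301 is a group of microRNAs (miRNAs) that share a seed, the short stretch near the 5′ end through which a miRNA pairs with its target messages. Its members were taken by name, and all 4 (miR-130a, miR-130b, miR-301a and miR-301b, listed as mir-130a, mir-130b, mir-301a and mir-301b) were among the 510 miRNAs listed and among the 237 with enough counts to be tested. Their counts came from small RNA sequencing of 24 mouse mammary libraries. Tumors were taken from female FVB mice heterozygous for a polyoma middle T antigen transgene (PyMT mice) at 6 weeks of age (hyperplasia), 8 weeks (adenoma), 10 weeks (early carcinoma) and 12 weeks (late carcinoma). Normal mammary glands were taken from FVB females without the transgene at the same 4 ages, with 3 libraries in each of the 8 groups. The transgene is driven by the mouse mammary tumor virus promoter, which is active mainly in mammary epithelium, whereas every library was made from whole tissue.

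A miRNA guides the Argonaute complex to messages that carry a match to its seed and lowers their translation and stability, so miRNAs with the same seed are expected to share many targets. In this family the seed is held by the 3p arm, the strand cut from the 3′ side of the hairpin precursor. The family is known for its part in vascular and fibrotic remodelling, where miR-130a in particular has been studied in endothelial cells, and its members have been described both as growth-promoting and as growth-restraining in different tumors.

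The mature sequences below show what the members share and where they part, with the seed (bases 2 to 8) in capitals. They are RefSeq sequences of the GRCm38.p6 table, which held a mature 3p entry for 3 of the 4 members. For miR-301b the hairpin is printed in its place, and the capitals mark its single copy of the family seed, at bases 56 to 62.
miR-130a-3p: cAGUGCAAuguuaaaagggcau
miR-130b-3p: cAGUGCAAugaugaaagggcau
miR-301a-3p: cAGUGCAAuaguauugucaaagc
Mir301b hairpin: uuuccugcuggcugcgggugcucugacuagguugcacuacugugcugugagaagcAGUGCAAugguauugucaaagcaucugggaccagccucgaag

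The family falls into 2 near-identical couples that differ outside the seed. miR-130a-3p and miR-130b-3p differed at 2 of 22 bases, U11A and A13G, counted from 1 at the 5′ end with the base of miR-130a-3p first. miR-301a-3p matched the best stretch of the Mir301b hairpin at 22 of 23 bases, with A10G as the only difference. Between the couples, miR-130a-3p and miR-301a-3p were identical at 12 of the first 22 bases. Because a single base separates miR-301a-3p from the corresponding arm of miR-301b, 3p reads assigned to the rare miR-301b cannot be told apart with certainty from 3p reads of miR-301a with a sequencing error. The opposite (5p) arms of the 2 differ at 3 of 22 bases (U10A, U11G and A12G), and the counts pool both arms.

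The hairpins lie at 3 places in the mm9 genome. Mir130a is on chromosome 2 (chr2:84581272-84581335, minus strand) and overlaps no other annotated gene. Mir301, the annotation's name for miR-301a, is on chromosome 11 (chr11:86926506-86926591, plus strand), on the same strand within an intron of Fam33a, now named Ska2, which encodes a spindle and kinetochore protein. Mir130b (chr16:17124154-17124235) and Mir301b (chr16:17124493-17124589) lie 257 bases apart on the minus strand of chromosome 16, within an intron of the gene 2610318N02Rik.

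Other miRNAs carry the same seed or one shifted by a base. The family seed stood at bases 2 to 8 of 7 of the 1738 mature RefSeq entries, of which 4 have a row in the count table: the 3 printed above and miR-721. The count of miR-721 was 0 in all 24 libraries, where 3 counts, taken as the detection floor, amount to 0.763 to 2.91 CPM before scaling (CPM, counts in 1000000 counts of a library). The miR-148 and miR-152 and miR-19 seeds each share a run of 6 bases with the seed of the family, as the following sequences show, again with bases 2 to 8 in capitals.
miR-148a-3p: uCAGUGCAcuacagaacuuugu
miR-152-3p: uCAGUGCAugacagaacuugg
miR-19a-3p: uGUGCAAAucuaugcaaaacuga

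Normal libraries held 1626022 to 3931375 counts in total and tumors 1032241 to 2213972. The shallowest was tumor replicate 2 of week 8, which also held the lowest miR-130a level and the highest miR-130b and miR-301b levels of all 24 libraries. Levels are given in CPM after TMM scaling, which corrects for differences in library composition. Within each week tumor and normal libraries were compared with the quasi-likelihood test of edgeR, and a miRNA was called when its Benjamini-Hochberg adjusted p over the 237 miRNAs was under 0.05. Detection floors cover counting error only, since amplified reads are not independent molecules. Skeletal muscle miRNAs summed to 89.0 to 89332 CPM in normal and 39.9 to 18078 CPM in tumor libraries, so the amount of muscle RNA varied widely within both types.

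The members moved in opposite directions in the tumors. miR-130a, the leading member in normal glands, fell to about 0.318 of its normal level averaged over the weeks, whereas miR-301a rose 1.93-fold, miR-130b 2.51-fold and miR-301b 2.92-fold. Family members were called as 1 lower and 3 higher at weeks 6 and 10, and as 1 lower and 2 higher at weeks 8 and 12. A call in itself was common in these tumors: of all 237 miRNAs 58.6%, 35.4%, 60.3% and 50.6% were called in the order of the weeks. Split by direction, 29.1%, 21.9%, 32.9% and 29.1% were called higher and 29.5%, 13.5%, 27.4% and 21.5% lower.

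miR-130a was the most abundant member in every normal library. At week 6 it measured 662, 874 and 1308 CPM in the normal libraries and 386, 304 and 447 CPM in the tumor libraries. Week 8 gave 960, 1010 and 1367 CPM in normal glands against 341, 219 and 457 CPM in tumors. All tumors lay below all normal glands at both weeks.

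The carcinoma weeks showed the same order. The normal glands of week 10 held 1234, 1216 and 700.3 CPM and the early carcinomas 284, 324 and 272 CPM. At week 12 the normal glands held 935, 1024 and 1354 CPM and the late carcinomas 328, 404 and 260.4 CPM. Again the types did not overlap, and over the whole series the highest tumor value, 457 CPM, stayed below the lowest normal value, 662 CPM. The share of all tested miRNAs that separated in this way over all weeks was not counted, which also applies to the miRNAs below.

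The log2 fold change of miR-130a, tumor over normal, was -1.32 ± 0.29 (SE), -1.74 ± 0.33, -1.86 ± 0.26 and -1.76 ± 0.27 in the order of the weeks. With edgeR the adjusted p was 0.00857, 0.00705, 0.00111 and 0.00171 in that order. Only 7.59% of the 237 miRNAs were called lower at all 4 weeks, as miR-130a was. Complete separation of the 3 tumor libraries below the 3 normal ones was found for 34.6%, 19.8%, 31.6% and 28.7% of miRNAs at weeks 6, 8, 10 and 12, and the opposite separation for 34.2%, 32.1%, 36.3% and 33.3%. Without tumor replicate 2 the week 6 difference of miR-130a was -1.12, with an adjusted p of 0.0511 in edgeR. That omission also brought the number of all miRNAs called at week 6 from 139 to 78.

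miR-130b, the nearest relative of miR-130a in sequence, went the other way. It measured 32.6, 68.4 and 41.5 CPM in the normal glands of week 6 and 117, 85.6 and 129 CPM in the tumors. At week 8 the normal glands held 29.5, 71.2 and 37.3 CPM and the tumors 103, 233 and 109.7 CPM, the highest value being that of the shallowest library. Tumors lay above normal glands without overlap at both weeks.

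At week 10 miR-130b stood at 34.1, 32.8 and 46.7 CPM in normal glands and at 70.1, 97.1 and 96.7 CPM in tumors. Week 12 had the tightest groups, with 36.9, 33.2 and 38.2 CPM in normal glands against 83.9, 84.5 and 80.8 CPM in tumors. Within each week the types did not overlap, but across weeks the lowest tumor (70.1 CPM, week 10) and the highest normal gland (71.2 CPM, week 8) met.

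The rise of miR-130b was 1.22 ± 0.34 log2 units (SE), 1.67 ± 0.45, 1.21 ± 0.23 and 1.19 ± 0.22 from the first age to the last. The adjusted p in edgeR was 0.0185, 0.0243, 0.00441 and 0.00437 respectively, and 18.6% of all tested miRNAs were, like miR-130b, called higher at all 4 weeks. The calls of the first 2 ages depended on single libraries. Without tumor replicate 1 the week 6 value was 1.20 with an adjusted p of 0.0556. At week 8 the adjusted p was 0.0695 without normal replicate 1, 0.0948 without normal replicate 3 and 0.0956, with a difference of 1.21, without tumor replicate 2. Calls over all miRNAs fell as well, from 139 to 89 at week 6 without tumor replicate 1. At week 8 they went from 84 to between 50 and 81 with any library left out.

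miR-301a, whose precursor sits in the Ska2 gene, was the second member by level in normal glands and the first in tumors. At week 6 it measured 185, 246 and 294 CPM in normal glands and 460.1, 454 and 417 CPM in tumors. The week 8 values were 213, 387 and 273 CPM in normal glands and 498, 510.2 and 586 CPM in tumors. No tumor reached down to a normal gland of its week.

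Early carcinomas of week 10 held 677, 648 and 549.8 CPM of miR-301a, against 274, 305 and 337 CPM in their normal glands. At week 12 the tumors stood at 493, 518 and 588 CPM and the normal glands at 236, 221 and 333 CPM. Over all weeks the lowest tumor, 417 CPM, was above the highest normal gland, 387 CPM.

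These levels gave log2 differences of 0.88 ± 0.23 (SE), 0.85 ± 0.26, 1.02 ± 0.17 and 1.00 ± 0.26 at weeks 6, 8, 10 and 12. All 4 passed the threshold in edgeR, with adjusted p of 0.0148, 0.0392, 0.00200 and 0.0164. The increase of miR-301a was, on average, the smallest of the 3 rising members, and the call at week 8 was the least secure. Leaving out any of normal replicates 1 and 3 or tumor replicates 1, 2 and 3 at week 8 raised the adjusted p to 0.0695, 0.111, 0.102, 0.0928 and 0.0659 in that order, with differences of 0.72 to 0.90. The same happened at week 6 without tumor replicate 1 (0.87, adjusted p = 0.0521) and at week 12 without tumor replicate 3 (0.91, adjusted p = 0.0600). Over all miRNAs, the week 6 omission brought the calls from 139 to 89 and the week 12 omission from 120 to 74.

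miR-301b, the neighbour of miR-130b in the genome, was barely detected. Its counts were 2 to 15 in the normal libraries and 4 to 17 in the tumor libraries, close to the floor of 3 counts. In CPM the normal glands held 0.945, 1.40 and 1.56 at week 6 against 7.48, 3.23 and 3.49 in tumors, and 1.18, 3.52 and 4.02 at week 8 against 4.86, 14.1 and 5.93 in tumors. Tumors exceeded normal glands without overlap at both weeks.

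At week 10 miR-301b measured 1.54, 3.56 and 2.04 CPM in normal glands and 5.72, 9.98 and 4.94 CPM in tumors. Week 12 was the only age with overlap, since the tumors held 6.67, 2.56 and 6.04 CPM and one normal gland, at 3.70 CPM, exceeded the lowest of them. The other 2 normal glands of that week held 1.30 and 0.809 CPM.

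The fitted log2 difference of miR-301b was 1.82 ± 0.47 (SE) at week 6 and 1.43 ± 0.45 at week 10, both called in edgeR (adjusted p = 0.0146 and 0.0296). It was 1.45 ± 0.59 at week 8 and 1.40 ± 0.65 at week 12, neither of which passed (adjusted p = 0.0876 and 0.108). With same-numbered libraries of week 8 treated as pairs, the miR-301b difference of 1.47 passed the threshold, with an adjusted p of 0.0299, and the number of called miRNAs went from 84 to 131. The call was lost at week 6 without tumor replicate 1 (1.32, adjusted p = 0.0703), and at week 10 without normal replicate 1 (adjusted p = 0.0635), tumor replicate 1 (0.0659) or tumor replicate 2 (0.0966). With any library of week 10 left out, 103 to 144 of all miRNAs were called, in place of 143. Without normal replicate 3 the week 12 difference was 2.20 and was called (adjusted p = 0.0264). miR-301b counts were 0.366% to 1.47% of the miR-301a counts in normal and 0.494% to 2.76% in tumor libraries, and the part of misassigned miR-301a reads in them was not tested.

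**Figure D1:**
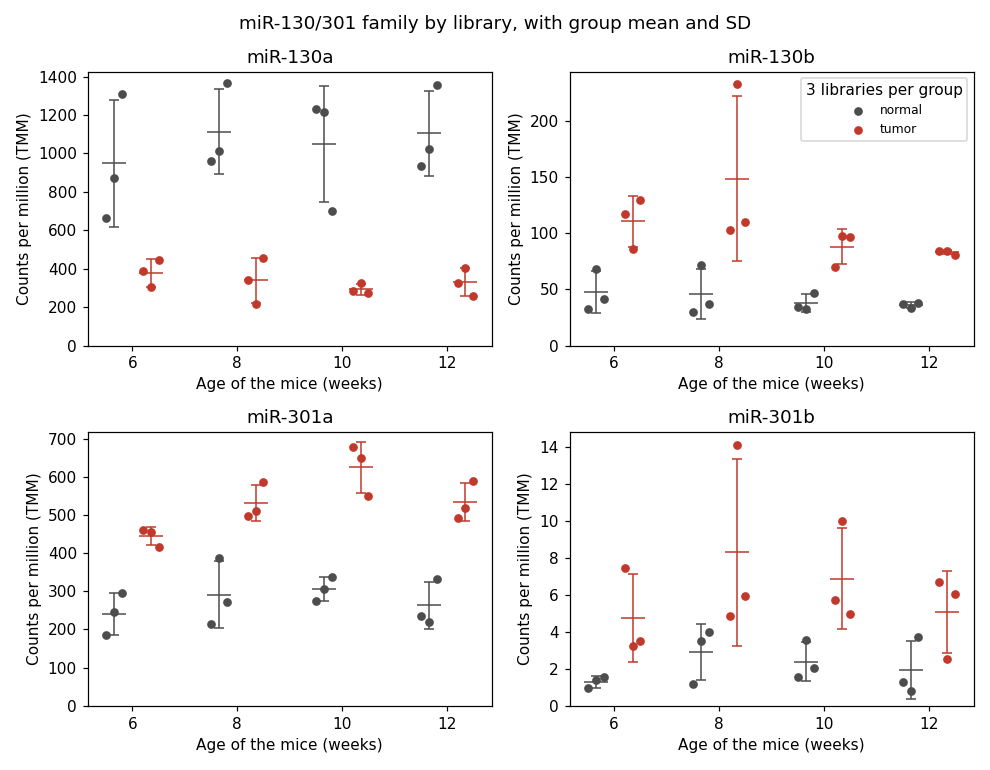
Level of each member (CPM after TMM scaling, vertical axis, separate linear scale in each panel) against age in weeks. Points are libraries, horizontal ticks group means and bars SD of 3 libraries. miR-130a tumors reach at most 457 CPM and its normal glands at least 662 CPM, while the other 3 members are higher in tumors, with overlap within a week only for miR-301b at week 12.

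Averaged over the 4 weeks in a single fit of all libraries, the log2 difference was -1.65 ± 0.15 (SE) for miR-130a, 1.33 ± 0.17 for miR-130b, 0.95 ± 0.11 for miR-301a and 1.54 ± 0.29 for miR-301b. All 4 passed in edgeR, with adjusted p of 5.67e-09, 1.00e-06, 1.48e-07 and 8.45e-05, as did 85.7% of the 237 miRNAs. miR-130a ranked 12 from the most decreased end among the 237, and miR-301b, miR-130b and miR-301a ranked 32, 40 and 63 from the most increased end. The median of all miRNAs was itself slightly below 0, at -0.15, and relative to that median the differences were -1.499, 1.483, 1.104 and 1.699 for miR-130a, miR-130b, miR-301a and miR-301b. Leaving out any 1 of the 24 libraries left all 4 members called and in the same direction.

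**Figure D2:**
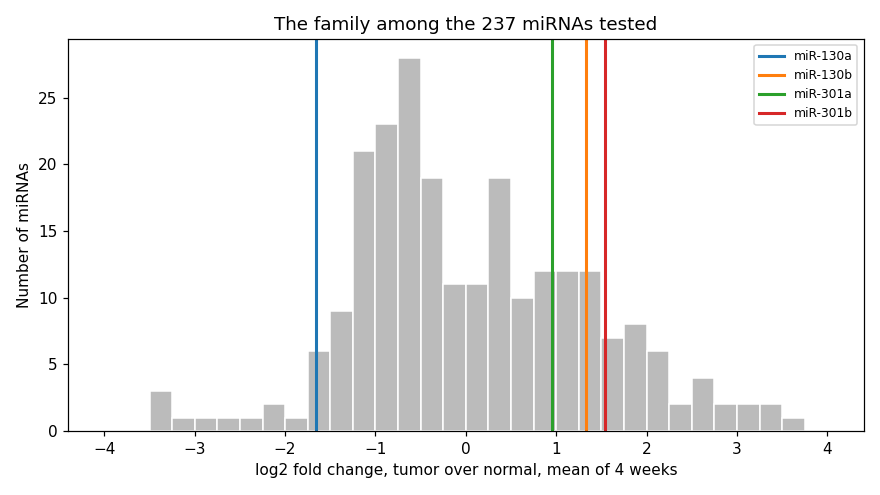
Histogram of the log2 fold change (tumor over normal, mean of the 4 weekly differences, horizontal axis) over the 237 tested miRNAs, with their number on the vertical axis. Vertical lines mark the members: miR-130a at -1.65 lies in the lower tail and the other 3, from 0.95 to 1.54, lie in the upper part.

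The size of the differences was also looked at within sequencing lanes. Libraries came from 2 lanes, and in each of the 8 combinations of week and lane miR-130a was lower and the other 3 members higher in tumors. Where all tumors of a week lay on the same side of all normal glands, a split by lane could not change the sign. That was so for every member and week except miR-301b at week 12. The share of all miRNAs that kept their direction in this way was not counted. Within lanes the log2 difference ranged from -2.12 to -1.15 for miR-130a, from 1.02 to 1.73 for miR-130b, from 0.50 to 1.30 for miR-301a and from 0.48 to 1.80 for miR-301b. Each of these values rests on 1 or 2 libraries of each type.

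**Figure D3:**
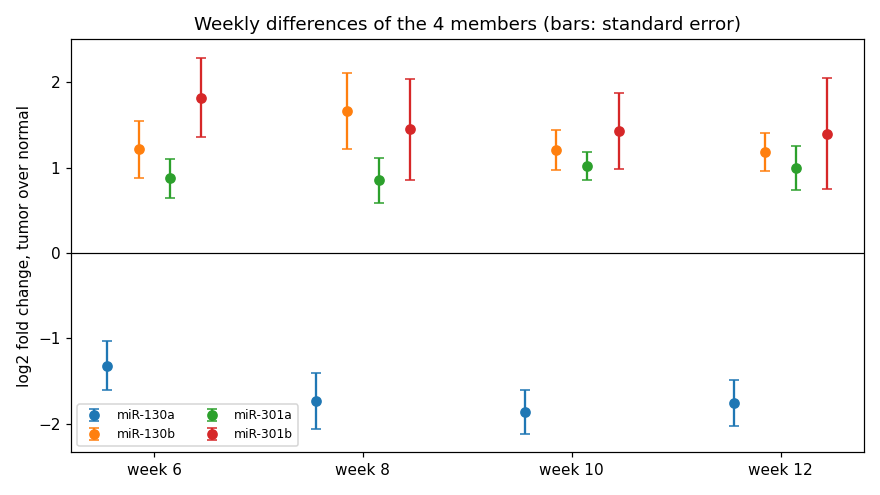
Log2 fold change, tumor over normal, of the 4 members at each week (points), with standard errors of the edgeR fit (bars). miR-130a lies between -1.86 and -1.32 and the other members between 0.85 and 1.82 at all weeks.

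No change of these differences with stage was detected. The test of whether the tumor-normal difference varied between weeks gave adjusted p of 0.971 for miR-130a, miR-130b and miR-301a and 0.9748 for miR-301b in edgeR. It called 0 of the 237 miRNAs, with 9 at an unadjusted p under 0.05, and the likelihood ratio test of DESeq2 also called 0. From week 6 to week 12 the members changed in normal glands by 0.22 ± 0.29 (SE) for miR-130a, -0.40 ± 0.34 for miR-130b, 0.12 ± 0.21 for miR-301a and 0.49 ± 0.66 for miR-301b. In tumors the same comparison gave -0.20 ± 0.29, -0.41 ± 0.34, 0.26 ± 0.21 and 0.08 ± 0.56 log2 units. None of these passed in edgeR, while 21.1% of all miRNAs were called between these ages in normal glands and 7.59% in tumors.

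With miR-130a falling and miR-301a rising, the leading member of the family changed. Of the reads of the 4 members, miR-130a took 76.3% ± 5.13 (SD, n = 12) in normal glands and 34.1% ± 6.62 in tumors. miR-301a took 20.3% ± 4.24 in normal glands and 54.3% ± 6.66 in tumors. The share of miR-130b was 3.16% ± 1.21 in normal glands and 10.97% ± 4.38 in tumors, and that of miR-301b 0.150% ± 0.0661 and 0.635% ± 0.317. For each member the lowest value of the higher type exceeded the highest value of the other type over all 24 libraries. The 4 shares of a library add up to the whole, so a lower miR-130a share means a higher combined share of the others. The 4 separations are therefore not independent. The closest was miR-301b, with 0.239% as its highest normal and 0.254% as its lowest tumor share. These were 7 of 2929 reads (normal replicate 3 of week 8) and 4 of 1578 (tumor replicate 2 of week 12). Their 95% Wilson intervals overlapped (0.116% to 0.493% and 0.0986% to 0.650%). The gap between these 2 libraries, and with it the complete separation of miR-301b, was therefore within counting error. The intervals do not address the difference between the means of the types. Reads of different miRNAs were not calibrated against known amounts, so the percentages are shares of reads. The 3p sequences have 22 or 23 bases where RefSeq gives one, but the counts pool both arms of a hairpin. The shares are therefore not of reads with the family seed alone.

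**Figure D4:**
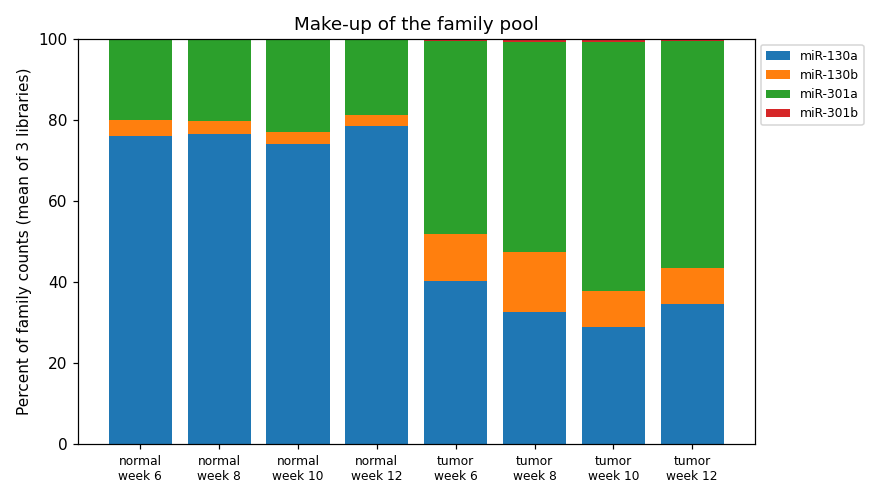
Stacked bars of the mean share of each member (percent of the reads of the 4 members, vertical axis, from 0) in the 8 groups of 3 libraries. miR-130a makes up 74.2% to 78.6% in normal groups and 28.9% to 40.2% in tumor groups, and miR-301a grows from 18.7% to 22.8% in normal groups to between 47.6% and 61.6% in tumor groups.

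After TMM scaling the summed level of the family was on average lower in tumors at every week. The levels of the 4 members summed to 881 to 1728 CPM in normal glands, with a median of 1375, and to 848 to 1159 CPM in tumors, with a median of 973. At week 6 the sums overlapped, with 881 to 1646 CPM in normal glands and 848 to 997 CPM in tumors. Their means there were 1239 ± 385 CPM (SD, n = 3) and 938 ± 79.5 CPM. At weeks 8, 10 and 12 every tumor sum was below every normal sum of its week, narrowly at week 10 (1079 against 1086 CPM). Relative to library totals without scaling, the types overlapped at every week. For example, tumor replicate 3 of week 8 held 2346 family counts of 1959535, and normal replicate 1 held 4076 of 3560156. The difference in the sum was not tested.

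Ratios of 2 members within a library do not depend on the scaling between libraries. Each of the 6 possible ratios was compared with an exact two-sided permutation test over labels exchanged within weeks, adjusted over the 6 pairs. The ratio of miR-130b to miR-130a, the couple differing at 2 bases, was 7.93-fold higher in tumors, a log2 difference of 2.99 with weekly values of 2.55 to 3.44. Its log2 value spanned -5.21 to -3.67 in normal glands and -2.26 to 0.09 in tumors. In the shallowest tumor library, replicate 2 of week 8, miR-130b (198 counts) exceeded miR-130a (186 counts), the only library in which it did.

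The ratio of miR-301a to miR-130a was 6.13-fold higher in tumors (2.62 log2 units, weekly range 2.18 to 2.83). miR-301a exceeded miR-130a in 11 of 12 tumor libraries and in 0 of 12 normal libraries. The ratio of miR-301b to miR-130a was 9.16-fold higher (3.20 log2 units). For all 3 ratios to miR-130a the exact p was 1.25e-05, the smallest that 160000 permutations can give, and the adjusted p was 2.5e-05. These ratios share miR-130a, so the tests are independent neither of each other nor of the member differences above. How often other pairs of a falling and a rising miRNA reach this p was not counted.

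Among the 3 rising members the ratios moved little. miR-301a over miR-130b differed by -0.37 log2 units (exact permutation test, adjusted p = 0.0261), so miR-130b rose slightly more than miR-301a. miR-301b over miR-301a differed by 0.58 (exact permutation test, adjusted p = 0.0261). Both ratios overlapped widely between the types, and both lost significance without tumor replicate 2 of week 8, at -0.27 (adjusted p = 0.0535) and 0.46 (adjusted p = 0.0594). Without any of normal replicate 3 or tumor replicate 3 of week 6 or normal replicates 1 or 3 of week 8, miR-301a over miR-130b had an adjusted p of 0.0588, 0.0582, 0.0608 and 0.0529. Without normal replicate 1 of week 8, normal replicate 2 of week 12 or tumor replicate 1 of week 12, miR-301b over miR-301a had an adjusted p of 0.0608, 0.0582 and 0.0578. The ratio of miR-301b to miR-130b, whose hairpins are neighbours, was -4.31 ± 0.74 (SD, n = 12) in normal and -4.10 ± 0.56 in tumor libraries on the log2 scale, a difference of 0.21 that did not pass (exact permutation test, adjusted p = 0.399).

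**Figure D5:**
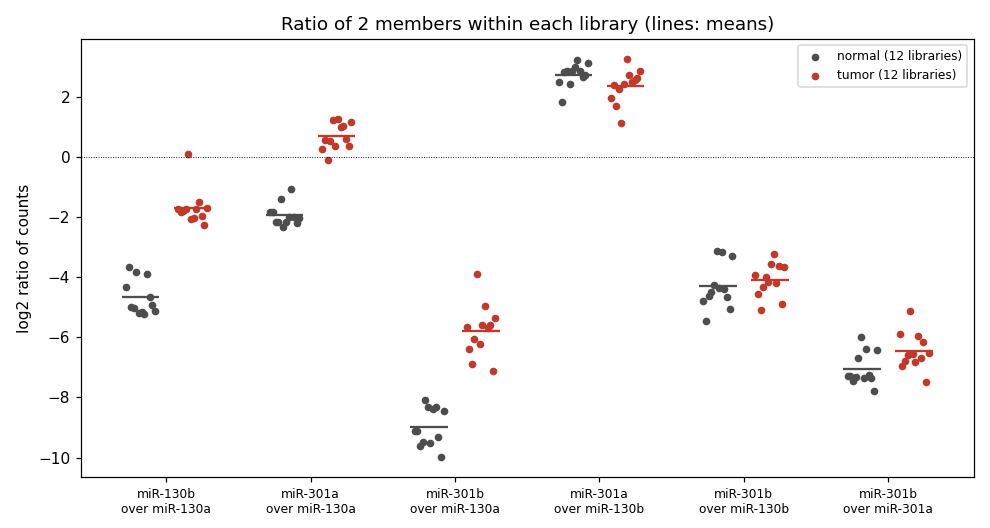
Log2 ratio of the counts of 2 members in each library (vertical axis, 0.5 added to each count), for the 6 pairs, with 12 normal and 12 tumor libraries as points and their means as lines. The 3 ratios to miR-130a separate the types, while the 3 ratios among miR-130b, miR-301a and miR-301b overlap.

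The miRNAs with a shifted seed rose in part. Of the miR-148 and miR-152 group, 2 of 3 were called higher at every week, as were 18.6% of all tested miRNAs. miR-148a, known for its abundance in mammary epithelium and milk, had a median of 95117 CPM in normal and 333950 CPM in tumor libraries, with ranges that did not overlap (63987 to 148902 and 255909 to 558380). Its log2 difference averaged 1.82 ± 0.13 (SE) over the weeks and that of miR-148b 1.06 ± 0.09. miR-152 went down, by -0.29 ± 0.08 on average (edgeR, adjusted p = 0.00220), and among single weeks was called at week 6 only. Relative to the median of all miRNAs, miR-152 stood at -0.13.

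Of the miR-19 group, both were called higher on average over the weeks, a comparison that called 85.7% of all miRNAs in either direction. miR-19a, a member of the growth-promoting miR-17-92 cluster, ranged from 86.5 to 217 CPM in normal glands and from 298 to 616 CPM in tumors, which did not overlap, with an average log2 difference of 1.66 ± 0.16 (SE). miR-19b rose by 0.60 ± 0.13 on average and was called at weeks 10 and 12. At week 6 the medians of the log2 differences were 0.98 for the miR-148 and miR-152 group and 1.05 for the miR-19 group, against -0.12 over all tested miRNAs.

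The miRNAs whose profile over the 24 libraries was most like that of each member were found by the root mean square difference of their centred log2 CPM. For miR-130a they were miR-145 (0.219 log2 units), miR-139 (0.283) and miR-143 (0.326), where the median over all miRNAs was 0.996. miR-145 and miR-143 are known from smooth muscle and fibroblasts. For miR-130b they were miR-877 (0.332), miR-92a (0.386) and miR-484 (0.392). For miR-301a they were miR-92a (0.215), miR-330 (0.216) and miR-340 (0.224), and for miR-301b miR-92a (0.453), miR-301a (0.473) and miR-148b (0.495).

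The profiles span both types, so a shared tumor-normal difference enters this measure. The 3 miRNAs nearest miR-130a were each called lower at all 4 weeks, with miR-145 at -1.16 to -1.92, and all those nearest the other members were called higher at all 4 weeks. When the profiles were centred within each type, 1 of the 3 nearest miRNAs remained for miR-130a (miR-145), for miR-130b (miR-877) and for miR-301a (miR-92a). For miR-301b both miR-92a and miR-301a remained. The sequence relatives miR-130a and miR-130b were 1.59 log2 units apart in profile, whereas miR-130b and miR-301a were 0.482 apart.

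Markers of several cell types also differed between tumors and normal glands, though not all members of a list did. miR-126, the defining miRNA of endothelial cells, measured 20497 to 37461 CPM in normal glands and 6568 to 18252 CPM in tumors, and was called lower at all 4 weeks (-0.67 to -1.57). All 5 miRNAs of the stroma list (miR-199a, miR-199b, miR-214, miR-143 and miR-145, of fibroblasts and smooth muscle) were called lower at each week, as were 7.59% of the 237 miRNAs, and their summed level was 158608 to 276050 CPM in normal glands and 70027 to 136934 CPM in tumors. Of the 7 epithelial miRNAs, the miR-200 family among them, 5 were called higher at each week, where 29.1%, 21.9%, 32.9% and 29.1% of all miRNAs were. Another, miR-203, was called lower at week 12 (-1.87, adjusted p = 0.0390 in edgeR) and on average over the weeks (-0.70, adjusted p = 0.00756). The last, miR-205, was called neither at any week nor on average (0.29, adjusted p = 0.333 in edgeR). The epithelial list summed to 5689 to 20147 CPM in normal glands and 19801 to 30349 CPM in tumors. The part of these shifts in the fall of miR-130a or in the rise of the other members was not tested, and in whole tissue fewer cells of a type and less RNA per cell cannot be told apart.

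Other lists separated the types less. The leukocyte list summed to 1681 to 3241 CPM in normal glands and 1198 to 1868 CPM in tumors, with miR-223 listed at 0 in every library. Of its 3 tested miRNAs, 1 was called lower at each week, where 29.5%, 13.5%, 27.4% and 21.5% of all miRNAs were. The erythroid list summed to 7797 to 34556 CPM in normal glands and 2060 to 13679 CPM in tumors. The 3 adipocyte-linked miRNAs summed to 4661 to 25144 CPM and 3046 to 15079 CPM. On average over the weeks all 3 erythroid and all 3 tested muscle miRNAs and 2 of 3 adipocyte-linked miRNAs were called lower, in a comparison that called 85.7% of all 237 miRNAs in either direction.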

How the data were processed

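Small RNA libraries (TruSeq, 24 mammary samples) were sequenced on 2 lanes. The authors aligned reads with Bowtie, counted those overlapping a miRBase miRNA and deposited raw counts, with both arms of a hairpin under 1 name. The labels name mm9 and the study's methods mm10. Groups, weeks and replicate numbers came from the labels. Members and lists were chosen with earlier results of these data known.

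miRNAs passing filterByExpr over the 8 groups were tested with edgeR 4.0.16 (R 4.3.3, TMM, quasi-likelihood, Benjamini-Hochberg, threshold 0.05), each week separately, and in a fit of all 24 libraries for the average, the variation between weeks and week 12 against week 6. The SE is the log2 fold change divided by the square root of F. Log2 CPM used a prior count of 2 and ratios 0.5. The tests were checked on simulated data with independent libraries. In edgeR, a minimum of recovered changes was required of the weekly tests and the average, not of the tests for change with age. Named miRNAs are the members, the seed lists, the 3 nearest profiles and examples of marker lists, and the libraries or miRNAs named beyond these were chosen after their values were seen. miRNAs with the same seed that have no row in the count table were not analysed here.

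Same-numbered libraries of a week shared a lane. Their deviations from the group means correlated by over 0.1 in all 3 pairs at weeks 6, 8 and 10 (0.196 to 0.816) and in 1 of 3 at week 12. No 2 libraries of a group agreed within sampling noise (chi-square per degree of freedom at least 84.2).

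Each of these was changed in turn: the scaling (library sizes alone, or size factors of DESeq2 1.42.0), the test (Wald test of DESeq2, classic exact test), the filter (none, or 10 counts as the minimum everywhere), the libraries (1 fit for all weeks, each library left out), the covariates (replicate number as a block, lane) and the prior counts. The likelihood ratio test of DESeq2 was chosen after seeing the data.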

Additional observations from a re-analysis of the deposited data

How the results depend on the processing

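Depth limited miR-301b most, and it could not be tested with at least 10 counts in every library. Averages over the weeks kept direction and call for every member under each alternative, and no alternative turned a tumor-normal direction of a member. Scaling moved the median week 6 difference of all miRNAs from -0.12 (TMM) to -0.26 (library sizes only). With library sizes only, week 8 lost miR-130b (1.45, adjusted p = 0.0626) and miR-301a (0.70, adjusted p = 0.138), leaving 1 member called. The week 8 call of miR-301a was also lost with the classic exact test (0.85, adjusted p = 0.0585) and with no filter (0.85, adjusted p = 0.0634). In a single fit of all libraries miR-301b was called at week 8 (1.48, adjusted p = 0.0372) and week 12 (1.42, adjusted p = 0.0465). The causes were not tested.

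With the replicate number as a block, week 8 called miR-301b (1.47) and 131 miRNAs in place of 84, and no other call on a member changed. At week 12, where same-numbered libraries correlated by 0.0312, 0.424 and 0.0718, the block called 117 miRNAs in place of 120. Over all weeks 17 of 24 libraries correlated best with the library of their own number.

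The change from week 6 to week 12 in normal glands turned direction with library sizes only for miR-130a (-0.0853) and miR-301a (-0.19), both uncalled. It called 28 miRNAs in place of 50 with at least 10 counts in every library. In tumors it called 30 with the Wald test of DESeq2 and 10 with no filter, in place of 18. Centring profiles within types kept 1 of the 3 nearest miRNAs of miR-130a, miR-130b and miR-301a, and both miR-92a and miR-301a for miR-301b.

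With each library of week 6 left out, log2 differences were miR-130a -1.52 to -1.02, miR-130b 1.01 to 1.58, miR-301a 0.72 to 1.04, miR-301b 1.32 to 2.14, with 1 to 4 members and 78 to 150 of all miRNAs called. With each library of week 8 left out, log2 differences were miR-130b 1.21 to 2.07, miR-301a 0.72 to 1.06, with 1 to 3 members and 50 to 81 of all miRNAs called. With each library of week 10 left out, log2 differences were miR-301b 1.12 to 1.81. With each library of week 12 left out, log2 differences were miR-301a 0.85 to 1.21, miR-301b 1.02 to 2.20, with 74 to 120 of all miRNAs called. For week 12 against week 6 in normal glands the ranges were miR-130b -0.60 to 0.0298, miR-301a -0.0390 to 0.47, miR-301b -0.26 to 1.05, with 32 to 76 of all miRNAs called. For week 12 against week 6 in tumors the ranges were miR-130a -0.37 to 0.0086, miR-301b -0.14 to 0.61, with 0 to 30 of all miRNAs called. The variation between weeks was called for 0 to 1 miRNAs. The log2 ratio ranged from -0.44 to -0.27 for miR-301a over miR-130b and from 0.46 to 0.68 for miR-301b over miR-301a.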
